A study of Mus musculus with 6 samples.

Results

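The genes of the eukaryotic translation initiation factors (eIFs) were taken by name, as every row whose symbol starts with Eif and a number, leaving out the eIF2 kinases (Eif2ak genes) and the eIF4E-binding proteins (Eif4ebp genes). This gave 48 of the 24421 genes in the table. They were measured by RNA-Seq in immortalized, cultured mouse proximal tubular epithelial cells (PTECs) of wild-type genotype. RNA was taken after 6 hours with bovine serum albumin (BSA, 3 libraries) or with BSA carrying palmitic acid (PA, 3 libraries), so that albumin was common to both groups. The comparison of both groups addresses what PTECs change in their transcripts during lipid overload. Whether separate cultures stand behind the replicates is not stated in any source, and p-values therefore speak only to the spread among these 6 libraries, which may be technical. The methods mention 2 sequencing centers, but not which library went to which, so the part of such a batch in the PA against BSA differences was not tested.

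Initiation brings the ribosome to the start codon of an mRNA. The eIF2 complex, loaded with GTP, carries the initiator tRNA to the small ribosomal subunit, where eIF1, eIF1A, eIF3 and eIF5 assemble with it. The eIF4F complex, made of the cap-binding protein eIF4E, the scaffold eIF4G and the helicase eIF4A, brings this assembly to the capped end of the mRNA. After the start codon is found, eIF5B joins the large subunit, and eIF2B reloads eIF2 with GTP. Stress kinases phosphorylate eIF2, which then blocks eIF2B. Translation falls for most mRNAs and rises for a few, such as that of the transcription factor ATF4. Protein synthesis and its control by phosphorylation were not measured here, and all values below are transcript levels.

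The library sizes behind the values ran from 17679817 to 21568228 reads. Levels are RPKM (reads scaled to gene length and to library size), which allows genes to be compared per length. The epithelial keratin genes Krt8 and Krt18 and the renal transcription factor gene Pax8 had a mean RPKM over 1, whereas the epithelial adhesion genes Cdh1 and Epcam did not. Of 8 proximal tubule markers, 2 had a mean RPKM over 1 (the endocytic receptor gene Lrp2 and the water channel gene Aqp1). Krt8 was at 475 to 512 RPKM in BSA-treated and 394 to 416 RPKM in PA-treated PTECs, Krt18 at 209 to 221 and 163 to 175 RPKM, and Pax8 at 54.5 to 58.7 and 50.7 to 57.5 RPKM. The proximal tubule markers summed to 14.6 to 17.2 RPKM with BSA and 13.4 to 15.2 RPKM with PA. Of 5 fibroblast markers, Col1a2 had a mean RPKM over 1, and the list summed to 1.74 to 1.85 RPKM with BSA and 0.97 to 1.59 with PA. No marker of endothelial (4), immune (5), podocyte (2), thick limb (2) or collecting duct cells (2) reached a mean RPKM of 1. The part of these levels in the results was not tested. In bulk RNA, fewer cells of a type and less RNA per cell cannot be told apart.

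Initiation factor transcripts were abundant and differed little between the groups. Of the 48 genes, 44 passed the expression minimum (a mean of at least 0.5 RPKM over the 6 libraries) and were tested, and 4 did not. Mean levels of the 44 ran from 4.12 RPKM (Eif5a2) to 913 RPKM (Eif4a1), with a median of 113 RPKM, whereas the median over all 11671 genes tested was 11.6 RPKM. Summed over the family, the level was 7400 ± 149 RPKM in BSA-treated PTECs and 7380 ± 104 RPKM in PA-treated PTECs (mean ± SD, n = 3 each).

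In limma, with an adjusted p under 0.05 as the call, 2 of the 44 genes rose with PA (Eif1 and Eif3c) and 6 fell (Eif2b1, Eif2b5, Eif2s3y, Eif3i, Eif4a3 and Eif4h). The 2 that rose were 4.55% of the family, where 11.2% of all genes tested were called higher. The 6 that fell were 13.6%, where 9.52% of all genes were called lower. In either direction 8 genes (18.2%) were called, against 20.7% of all genes tested. Among the 6314 genes with a mean of at least 10 RPKM, 26.4% were called, 14.4% higher and 12.0% lower. At an unadjusted p under 0.05 there were 15 genes, 3 higher and 12 lower. The share of all genes at this unadjusted threshold was not taken, so this split is no result about the family. None of the 44 passed the second threshold of the study, an absolute log2 fold change over 0.4, which 6.29% of all genes passed together with the first.

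The log2 fold changes of the family spanned −0.22 to 0.34. Their median was −0.04, equal at this precision to the median of all genes (−0.04), and the median size regardless of sign was 0.07, against 0.12 for all genes. By sign, 12 fold changes were positive and 32 negative. The median of all genes was negative as well, with 25th and 75th percentiles of −0.13 and 0.09. The median standard error was 0.04, against 0.06 for all genes. For 39 of the 44, the 95% interval of the difference lay within a 1.2-fold change in either direction. The exceptions were Eif1, Eif2s3y, Eif2b1, Eif2b3 and Eif5a2. In 16 genes the PA and BSA libraries did not overlap, 3 with all PA libraries above (Eif1, Eif3c and Eif5) and 13 with all PA libraries below. All PA libraries lay above in 18.2% of all genes tested and below in 22.3%, and 40.5% did not overlap in either direction.

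**Figure D1:**
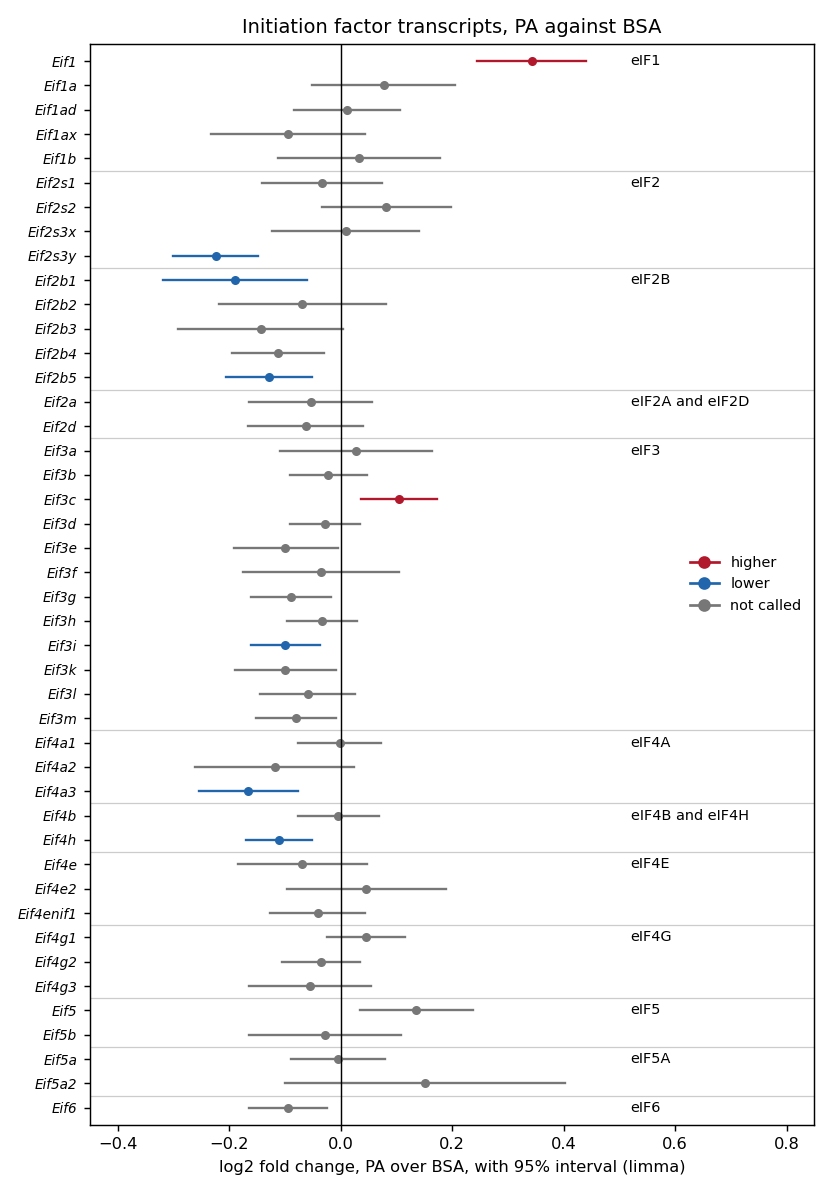
Log2 fold change of PA-treated over BSA-treated PTECs for the 44 initiation factor genes tested, grouped by factor (points, limma estimate; lines, 95% interval; n = 3 libraries each). Red points were called higher and blue points lower, and Eif1 at 0.34 stands to the right of the rest.

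Eif1 and Eif2s3y were called under all 17 alternative settings, and each of the other 6 genes lost its call under some. Eif2b5, Eif3c, Eif3i and Eif4h lost the call when any library other than BSA replicate 3 was left out, with an adjusted p of up to 0.124, 0.152, 0.154 and 0.161 over the 17 settings. Eif4a3 lost it without BSA replicate 1 or without any PA library (up to 0.101), and Eif2b1 without any BSA library or without PA replicate 1 or 2 (up to 0.143). The number of genes called higher was 5 without BSA replicate 3 and 1 without each other library. The number called lower was 8 without BSA replicate 3, 2 without BSA replicate 2 or PA replicate 3, and 1 without BSA replicate 1, PA replicate 1 or PA replicate 2. With median-of-ratios scaling, 2 genes were called higher and 1 lower, and with a trend on GC content removed from each library, 2 and 1. Over all genes, that scaling called 1476 higher and 794 lower, in place of 1302 and 1111.

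BSA replicate 3 stood apart within its group, over all genes as well as in this family. Over all genes, its median distance from the group mean was 0.07 on the log2 scale regardless of sign, against 0.04 to 0.05 in the other 5 libraries, and its deviations had a correlation of −0.20 with GC content, against 0.15 and 0.07 in BSA replicates 1 and 2. In the family, it held the highest of the 3 BSA values for 28 of the 44 genes, against 7 for BSA replicate 1 and 9 for BSA replicate 2. Its median distance from the BSA mean was 0.06 over these genes, and that of the other 5 libraries was 0.02 to 0.03. Across the 44 genes, which share the libraries, the deviation of BSA replicate 3 from its group mean had a Pearson correlation of −0.45 with the GC content of the transcripts. The correlation was 0.39 and 0.41 in BSA replicates 1 and 2, and −0.04, −0.26 and 0.21 in PA replicates 1, 2 and 3. Deviations are taken from the mean of the same 3 libraries, so a slope in any of them is offset in the others. The log2 fold change itself had a correlation of −0.07 with GC content over the 44 genes. The part of the GC trend in single results was not tested beyond the fit with the trend removed.

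**Figure D2:**
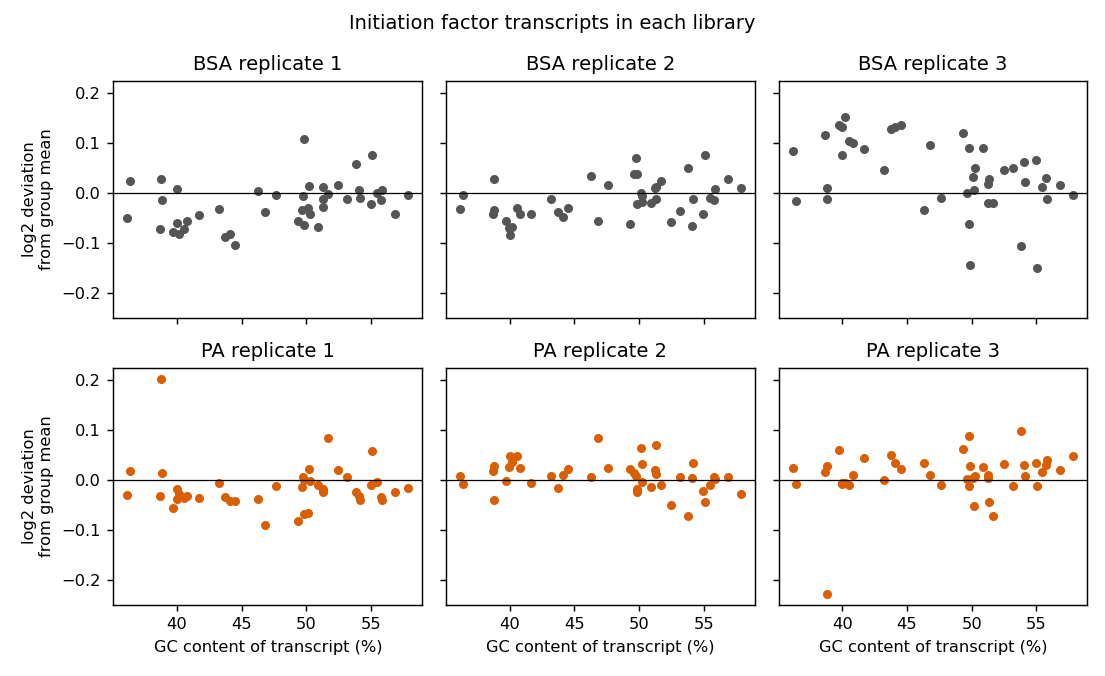
Deviation of each initiation factor gene from its group mean (log2 scale, vertical) against the GC content of its transcript (percent, horizontal), with 1 panel per library and 1 point per gene (44 genes). Points slope down in BSA replicate 3 (r = −0.45) and up in BSA replicates 1 and 2 (r = 0.39 and 0.41). Deviations within a group offset each other, so these slopes are not independent.

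The factors that set the stringency of start codon choice were led by Eif1, whose product holds the scanning ribosome in an open state and guards against wrong start sites. Eif1 (chr11:100319885-100322096 on GRCm38, plus strand) was at 456, 471 and 509 RPKM in the BSA libraries and at 602, 600.4 and 617 RPKM in the PA libraries. All PA libraries were above all BSA libraries, and the gap between the groups was wider than the range within either. The mean rose from 479 ± 27.02 to 607 ± 9.25 RPKM (SD, n = 3 each), a log2 fold change of 0.34 (SE 0.04, 95% interval 0.25 to 0.44, adjusted p = 0.00135, limma) or 1.27-fold. Over the 17 settings the log2 fold change ran from 0.31 to 0.43. Between 10893 and 14724 reads lay behind these values in each library. Of the 50-base words in Eif1 transcripts, 31.6% also occur in 18 other annotated genes, most of them in Emd, so that part of its reads could be shared with these. How such reads were counted is not stated.

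The nearest paralog of Eif1, Eif1b, was far lower and did not pass the test. Its level was 19.3, 19.2 and 17.2 RPKM with BSA and 18.6, 18.02 and 20.3 RPKM with PA, so the groups overlapped (log2 fold change 0.03, 95% interval −0.11 to 0.18). The ratio of Eif1 to Eif1b was 25.9 ± 3.17 with BSA and 32.0 ± 1.48 with PA. The eIF1A genes, whose products work with eIF1 in scanning, had opposite signs. Eif1a was at 66.9, 66.4 and 76.5 RPKM with BSA and at 72.6, 74.9 and 73.3 RPKM with PA (log2 fold change 0.08, adjusted p = 0.359). Eif1ax, its copy on the X chromosome, was at 211, 214 and 245 RPKM with BSA and 200.6, 208 and 218 RPKM with PA (−0.10, adjusted p = 0.293). Neither passed the test. Within each library the ratio of Eif1ax to Eif1a was 3.16 to 3.23 with BSA and 2.76 to 2.97 with PA. This ratio was not tested, and no share over other pairs of genes was taken, so it is no result about the pair. Eif1ad, for a protein with a domain like that of eIF1A, had a log2 fold change of 0.01. Without BSA replicate 3, the highest BSA library for Eif1a, that gene was called higher (adjusted p = 0.0102).

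Eif5 encodes the protein that makes eIF2 hydrolyse its GTP and that displaces eIF1 at the start codon. It was at 110.5, 110.5 and 121 RPKM with BSA and at 122, 125 and 129 RPKM with PA. The PA libraries all lay above, by little in the case of BSA replicate 3. The log2 fold change was 0.14 (SE 0.04) with an adjusted p of 0.0637, just outside the call. Eif5 passed under 5 of the 17 settings, among them without BSA replicate 3 and with limma voom on recovered reads (adjusted p down to 0.00568). Eif1 exceeded Eif5 by 4.13, 4.26 and 4.20 times in the BSA libraries and by 4.94, 4.82 and 4.79 times in the PA libraries. Eif5b, the GTPase for subunit joining, was at 32.9 ± 2.64 and 32.2 ± 1.00 RPKM (log2 fold change −0.03).

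**Figure D3:**
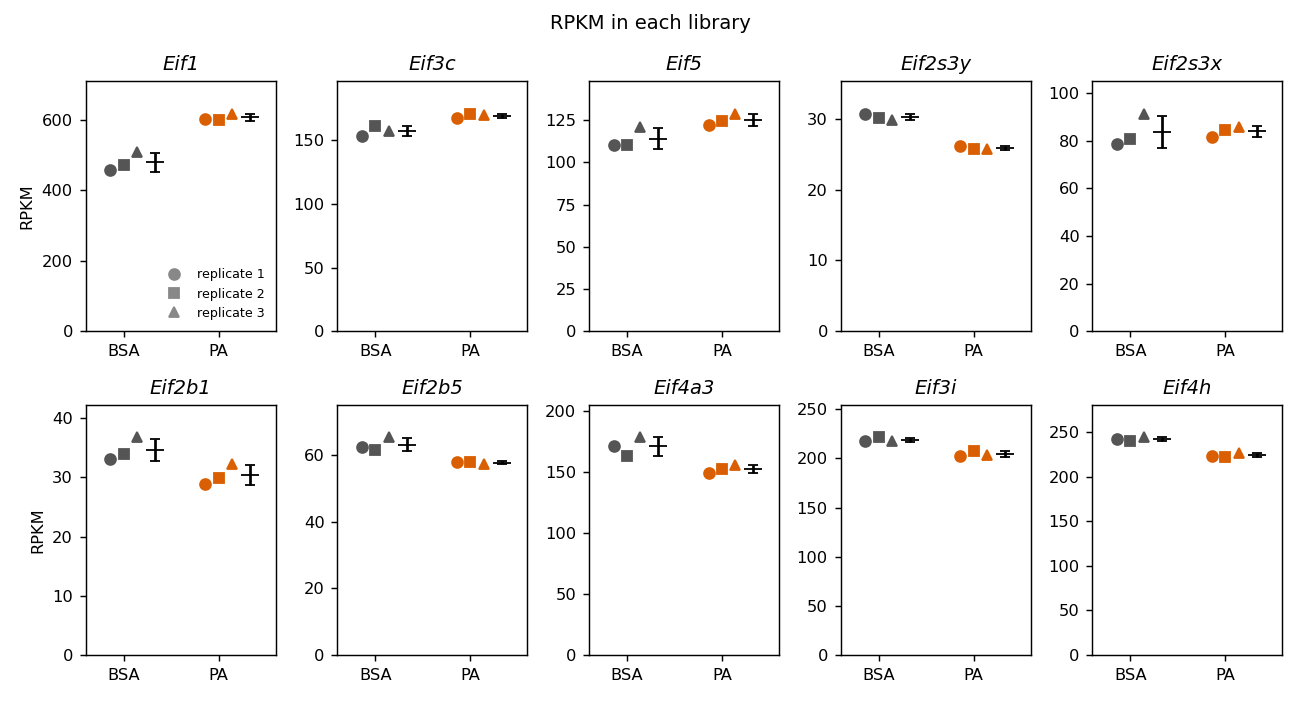
RPKM of 10 initiation factor genes in each of the 6 libraries, with 1 panel per gene and a vertical scale from 0 in each panel (symbols, libraries by replicate number; bars, group mean ± SD). Eif1 separates the groups widely (456 to 509 RPKM with BSA against 600.4 to 617 RPKM with PA), while Eif2s3x overlaps (78.7 to 91.3 against 81.5 to 85.8 RPKM).

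In the eIF2 complex, 1 of the 4 subunit genes was called. Eif2s1 encodes the α subunit that the stress kinases phosphorylate, and Eif2s2 the β subunit. Eif2s1 was at 73.5 ± 4.51 RPKM with BSA and 71.7 ± 1.41 RPKM with PA (log2 fold change −0.03), and Eif2s2 at 172 ± 12.2 and 182 ± 3.64 RPKM (0.08, adjusted p = 0.278). Eif2s2 was called higher without BSA replicate 3 (adjusted p = 0.0101). The γ subunit, which binds the initiator tRNA and GTP, is encoded by Eif2s3x on the X and Eif2s3y on the Y chromosome in mice.

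Eif2s3y (chrY:1010543-1028847, plus strand) was at 30.7, 30.1 and 29.9 RPKM with BSA and at 26.2, 25.7 and 25.7 RPKM with PA. The libraries of each group lay close together and the groups were well apart. Its level fell from 30.3 ± 0.43 to 25.9 ± 0.28 RPKM (log2 fold change −0.22, SE 0.03, adjusted p = 0.00311). The call stood under all 17 settings, with log2 fold changes from −0.24 to −0.19. The X-linked copy was at 78.7, 80.6 and 91.3 RPKM with BSA and 81.5, 84.4 and 85.8 RPKM with PA, with overlapping groups (log2 fold change 0.01, 95% interval −0.12 to 0.14, adjusted p = 0.929). Eif2s3x was 2.56 to 3.06 times as abundant as Eif2s3y with BSA and 3.11 to 3.34 times with PA. No 50-base word of Eif2s3y occurs in another annotated gene, and 36.2% of those of Eif2s3x occur in Gm2223. Kdm5d, another gene on the Y chromosome, was also lower with PA (log2 fold change −0.27, adjusted p = 0.0257, limma). Whether the fall of Eif2s3y was shared along that chromosome was not tested. The sum of the 4 eIF2 subunit genes was 359 ± 23.1 RPKM with BSA and 363 ± 6.85 RPKM with PA.

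All 5 subunit genes of eIF2B, the exchange factor that reloads eIF2, had negative log2 fold changes, with a median of −0.13. Of these, 2 fell (Eif2b1 and Eif2b5) and 3 were not called, where 9.52% of all genes tested were called lower. Eif2b5 encodes the catalytic ε subunit, and was at 62.6, 61.6 and 65.4 RPKM with BSA and at 58.0, 58.0 and 57.3 RPKM with PA. All PA libraries were below (log2 fold change −0.13, SE 0.03, adjusted p = 0.0322). Eif2b1 encodes the regulatory α subunit, and was at 33.1, 34.0 and 36.8 RPKM with BSA and at 28.9, 29.95 and 32.2 RPKM with PA (log2 fold change −0.19, SE 0.06, adjusted p = 0.0480). The groups did not overlap, but PA replicate 3 came close to BSA replicate 1. Both calls were lost with median-of-ratios scaling and with the GC trend removed.

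Eif2b4 and Eif2b3, for the δ and γ subunits, had adjusted p values of 0.0598 and 0.150 (log2 fold changes −0.11 and −0.14), with no overlap between the groups. Eif2b2, for the β subunit, overlapped (−0.07, adjusted p = 0.481). In limma, Eif2b2 was called lower without BSA replicate 3 (adjusted p = 0.0271), and Eif2b4 with quantile normalization (adjusted p = 0.0477). Summed, the 5 genes were at 190.9, 192 and 192 RPKM with BSA and at 176, 175 and 178 RPKM with PA. The sums of both groups did not overlap, with means of 192 ± 0.73 and 176 ± 1.22 RPKM. Single genes spread more than the BSA sum. Eif2b2 was at 53.1, 53.1 and 45.4 RPKM with BSA (SD 4.45), lowest in replicate 3, where Eif2b1, Eif2b3 and Eif2b5 were highest. Of all single genes tested, 40.5% did not overlap between the groups, and 22.3% had all PA libraries below. Such a share was not taken for sums of genes. Eif2a and Eif2d, whose products can bring initiator tRNA to the ribosome without eIF2, had log2 fold changes of −0.05 and −0.06 and were not called.

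The subunits of eIF3, the large scaffold that holds the preinitiation complex together, included some of the abundant transcripts of the family. The 12 tested genes had means between 97.8 RPKM (Eif3f) and 378 RPKM (Eif3h). Of these, 1 rose, 1 fell and 10 were not called, with 2 positive and 10 negative log2 fold changes and a median of −0.05. That median was −0.02 with median-of-ratios scaling, −0.03 without BSA replicate 2 and −0.07 without BSA replicate 3. Eif3c, a core subunit, was at 154, 161 and 157 RPKM with BSA and at 167, 171 and 169 RPKM with PA. All PA libraries were above (log2 fold change 0.10, SE 0.03, adjusted p = 0.0431). Eif3i, a subunit of the module around eIF3b, was at 218, 221 and 218 RPKM with BSA and at 203, 208 and 203 RPKM with PA. All PA libraries were below (−0.10, SE 0.03, adjusted p = 0.0361). Eif3e, Eif3g, Eif3k and Eif3m also had all PA libraries below, with adjusted p values of 0.123, 0.0758, 0.110 and 0.106. With Eif3i these were 5 of the 12, where all PA libraries lay below in 22.3% of all genes tested. Whether the eIF3 genes differ from that share was not tested. Eif3a, Eif3b, Eif3d, Eif3f and Eif3l overlapped between the groups, with log2 fold changes of −0.06 to 0.03. Without BSA replicate 3, Eif3f was called lower in limma (adjusted p = 0.0434). Eif3h, the most abundant of the subunits, was at 383 ± 6.64 and 374 ± 4.27 RPKM (−0.03, 95% interval −0.10 to 0.03).

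Eif3j1 and Eif3j2, for the loosely bound j subunit, were listed at 0 in all 6 libraries. In the annotation, 39.8% of the 50-base words of Eif3j1 and 91.8% of those of Eif3j2 occur in another gene, nearly all of them in the other copy. The cause of the listed 0 was not tested, and no level of the j subunit can be given from these values.

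Of the eIF4A helicases, Eif4a1 and Eif4a2, which unwind the start of the mRNA, were not called, and Eif4a3, whose main role is another, fell. Eif4a1, the most abundant gene of the family, was at 915, 935 and 891 RPKM with BSA and at 888, 916 and 934 RPKM with PA. The groups overlapped throughout (log2 fold change −0.002, 95% interval −0.08 to 0.07, adjusted p = 0.974). Its sign was positive with median-of-ratios scaling, quantile normalization and the GC trend removed. Of the 50-base words of Eif4a1, 33.3% occur in 11 other annotated genes. Eif4a2 was at 138, 139 and 162 RPKM with BSA and at 132, 138 and 134 RPKM with PA (−0.12, adjusted p = 0.209), with BSA replicate 3 far above the rest. Eif4a3, a core part of the exon junction complex deposited at splicing, was at 171, 163 and 178 RPKM with BSA and at 149, 153 and 155 RPKM with PA. Its groups did not overlap, and it fell by 0.17 on the log2 scale (SE 0.04, adjusted p = 0.0214). Of its 50-base words, 24.4% occur in 3 other annotated genes.

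Of the cofactors that stimulate eIF4A, Eif4h fell and Eif4b was not called. Eif4h was at 242, 239.9 and 244 RPKM with BSA and at 223, 222 and 226 RPKM with PA. The libraries of each group lay close together, and no PA library reached the BSA range (log2 fold change −0.11, SE 0.03, adjusted p = 0.0206). Eif4b was at 319 ± 10.3 and 318 ± 1.42 RPKM (log2 fold change −0.004, 95% interval −0.08 to 0.07). Its sign, too, was positive with median-of-ratios scaling, quantile normalization and the GC trend removed.

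The 6 tested genes of the cap-binding and scaffold factors gave no call in limma or with voom, and 0 had an unadjusted p under 0.05. Eif4e, for the cap-binding protein, was at 58.4, 60.1 and 66.0 RPKM with BSA and at 57.1, 60.5 and 58.1 RPKM with PA (log2 fold change −0.07, adjusted p = 0.362). Eif4e2, for a cap-binding protein that acts as a repressor, was at 24.5 ± 1.80 and 25.3 ± 1.29 RPKM (0.05, adjusted p = 0.631). The other paralogs were near the floor, with 0 to 2 reads per library for Eif4e1b and 0 to 4 for Eif4e3. Eif4enif1, for a transporter of eIF4E, had a log2 fold change of −0.04. Eif4g1, for the main scaffold, was at 275 ± 3.70 and 284 ± 7.29 RPKM (0.05, 95% interval −0.02 to 0.12). Eif4g2, for a scaffold without the eIF4E site, and Eif4g3 had log2 fold changes of −0.04 and −0.05.

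Eif5a encodes a hypusine-bearing factor that helps elongation and termination. It was at 744 ± 30.2 RPKM with BSA and 741 ± 15.1 RPKM with PA (log2 fold change −0.01, adjusted p = 0.940, positive with median-of-ratios scaling, quantile normalization and the GC trend removed). Its paralog Eif5a2 was the lowest of the genes tested, at 3.96, 3.79 and 3.91 RPKM with BSA and 4.99, 4.41 and 3.68 RPKM with PA. PA replicates 1 and 2 of Eif5a2 lay above the BSA range and PA replicate 3 below it. Its interval was the widest in the family (log2 fold change 0.15, 95% interval −0.10 to 0.40). Eif6, whose product keeps the large subunit from joining too early, was at 176, 178 and 176 RPKM with BSA and at 163, 162 and 171 RPKM with PA. All PA libraries were below, but the adjusted p was 0.0614 (log2 fold change −0.10). Without BSA replicate 3 it was 0.0496.

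Small nucleolar RNAs and a microRNA encoded inside these genes were listed with few reads. Snord2 in Eif4a2 had 57 to 86 reads in the BSA libraries and 41 to 61 in the PA libraries, and Snora28 in Eif5 had 32 to 44 and 40 to 48. Snora81 in Eif4a2 had 60 to 65 and 44 to 70. Snord66 in Eif4g1 and Mir1956 in Eif4e had at most 5 and 7 reads in any library. Scaled to length and library size, Snora28 was at 18.2, 16.5 and 15.0 RPKM with BSA and at 19.6, 18.5 and 18.3 RPKM with PA, without overlap but not called (adjusted p = 0.0993), and the other 4 overlapped.

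Among the genes that control the initiation factors were larger log2 fold changes than that of any factor gene. Of 49 related genes, all of them tested, 12 rose, 3 fell and 34 were not called, with a median log2 fold change of 0.02. Over all genes tested, 11.2% were called higher and 9.52% lower. Of the 12 that rose, 7 were the transcripts listed as readouts of eIF2 phosphorylation. Among 10 genes for the control of eIF2 phosphorylation, 4 rose and 1 fell (Eif2ak2, for the kinase that senses double-stranded RNA). Eif2ak3 encodes PERK, the eIF2 kinase of the endoplasmic reticulum, and rose from 5.18 ± 0.15 to 7.26 ± 0.21 RPKM (log2 fold change 0.48, adjusted p = 9.3e-04). Ppp1r15a, for the subunit that brings a phosphatase to eIF2, was at 11.8, 11.6 and 10.9 RPKM with BSA and at 23.0, 25.9 and 25.02 RPKM with PA (1.10, adjusted p = 1.9e-05). Impact, for an inhibitor of the kinase GCN2, rose from 6.404 ± 0.39 to 12.7 ± 0.97 RPKM (0.97, adjusted p = 1.1e-04). Dnajc3, for a chaperone that inhibits PERK, was the remaining riser (0.36). All 7 transcripts listed as readouts of eIF2 phosphorylation rose, with a median of 0.67, and the changes of Trib3, Ddit3 and Chac1 were 1.69, 1.43 and 1.23. The list was chosen with earlier results of these data known. Phosphorylation was not measured, and what raised these transcripts was not tested.

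Of 9 genes for the control of cap binding, 1 rose and 1 fell. Eif4ebp1, for a protein that keeps eIF4E from eIF4G, was at 186, 187 and 170 RPKM with BSA and at 249.6, 262 and 266 RPKM with PA. The groups were far apart (log2 fold change 0.52, SE 0.04, adjusted p = 2.4e-04). The ratio of Eif4ebp1 to Eif4e was 3.18, 3.12 and 2.58 in the BSA libraries and 4.37, 4.32 and 4.57 in the PA libraries. Pdcd4, for an inhibitor of eIF4A, fell from 4.42 ± 0.96 to 2.63 ± 0.63 RPKM (−0.73, SE 0.19, adjusted p = 0.0343). It lost the call when BSA replicate 1, BSA replicate 2, PA replicate 2 or PA replicate 3 was left out (adjusted p up to 0.114).

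In limma, none of 5 poly(A) binding genes, 8 scanning and recycling genes or 3 termination genes was called, and none was with voom. Of these, 1 (Etf1) had an unadjusted p under 0.05. Pabpc1, for the main poly(A)-binding protein, was at 754 ± 25.4 and 757 ± 12.9 RPKM, Ddx3x, for a scanning helicase, at 157 ± 11.4 and 156 ± 1.51 RPKM, and Etf1, for the release factor, at 102 ± 3.94 and 109 ± 2.23 RPKM. Of 7 elongation genes, Eef1d, for a subunit of the exchange factor of eEF1A, fell (log2 fold change −0.15, adjusted p = 0.0453). Its call was lost whenever 1 library was left out (adjusted p up to 0.155). Of the 7, 6 had an unadjusted p under 0.05 in limma. Eef1e1, Eef2 and Eef2k were higher with PA (log2 fold changes 0.19, 0.06 and 0.25). Eef1a1, Eef1b2 and Eef1d were lower (−0.12, −0.13 and −0.15). The share of all genes at this unadjusted threshold was not taken. With voom, 4 elongation genes were called (Eef1a1, Eef1b2, Eef1d and Eef1e1). Over all genes, voom called 1487 higher and 1415 lower.

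**Figure D4:**
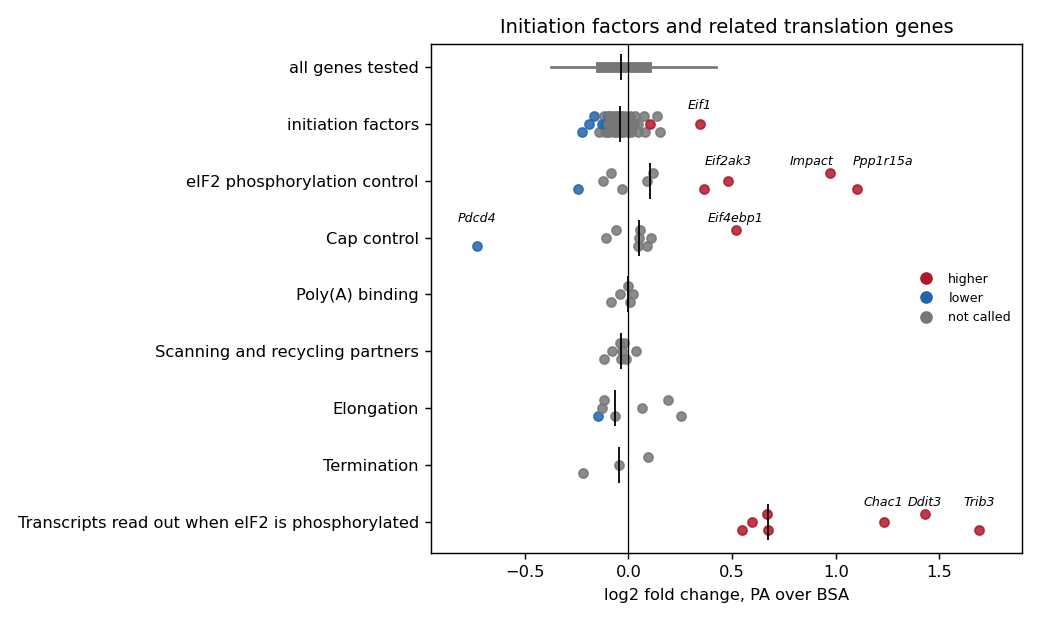
Log2 fold change of PA-treated over BSA-treated PTECs for the initiation factor genes and the related gene lists, with 1 point per gene and a vertical bar at the median of each list. The top row shows all 11671 genes tested, with a thick line from the 25th to the 75th percentile and a thin line from the 5th (−0.37) to the 95th (0.42). The initiation factors lie between −0.22 and 0.34. The transcripts listed as read out when eIF2 is phosphorylated, which was not measured, lie between 0.55 and 1.69.

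Promoter sequences were read because the study centers on TFEB, which binds the CLEAR motif, a palindromic E-box. A further reason was the rise of the genes listed as readouts of eIF2 phosphorylation. RefSeq promoters (GRCm38.p6) were given for 38 of the 48 genes, and 4 motifs were searched on both strands in the 250 bases before each start. The extended E-box TCACGTGA was in 2 of the 38 (5.26%), against 0.907% of all 27025 genes with a promoter and 1.92% of the 8765 expressed ones. The plain E-box CACGTG, which the extended form contains, was in 9 (23.7%, against 6.86% and 10.2%), and the ETS core CCGGAAG was in 11 (28.9%, against 7.83% and 16.8%). The C/EBP-ATF element TGATGNAA, known from genes that ATF4 controls, was in 1 (2.63%, against 3.91% and 2.25%). These matches are a description of letters, and binding was not measured.

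Of the 9 genes with an E-box match, Eif4h was the only one called, where 18.2% of the tested family and 20.7% of all genes tested were called. Shown here, to compare the letters around the motif, are both extended sites and plain sites of Eif4h, Eif3k and Eif4a1, with 20 bases on each side, 5′ to 3′ on the strand of the gene, with the motif in capitals. They are Eif4g1 (chr16:20672652-20672699, plus), Eif5a2 (chr3:28781139-28781186, plus), Eif4h (chr5:134639480-134639525, minus), Eif3k (chr7:28981907-28981952, minus) and Eif4a1 (chr11:69672587-69672632, minus).
Eif4g1: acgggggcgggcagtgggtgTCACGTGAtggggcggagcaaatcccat
Eif5a2: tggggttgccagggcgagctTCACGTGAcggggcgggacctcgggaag
Eif4h: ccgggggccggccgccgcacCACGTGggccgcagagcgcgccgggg
Eif3k: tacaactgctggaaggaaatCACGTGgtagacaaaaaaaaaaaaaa
Eif4a1: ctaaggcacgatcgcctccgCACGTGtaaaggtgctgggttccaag
Eif4h, with the plain E-box, fell, while Eif4g1 and Eif5a2, with the extended form, and Eif4a1 and Eif3k, with the plain form, were not called.

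The C/EBP-ATF element of the family was in Eif2s3x, which was not called, and is shown beside that of Chac1, which rose by 1.23 on the log2 scale. Both matches are on the opposite strand, so the capitals hold the reverse complement of the motif (chrX:94212720-94212767, minus, and chr2:119351029-119351076, plus).
Eif2s3x: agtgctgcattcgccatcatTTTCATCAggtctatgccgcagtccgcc
Chac1: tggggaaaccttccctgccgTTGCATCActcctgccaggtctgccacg
Eif1 and Eif2s3y, the 2 genes called under every setting, held none of the 4 motifs. Of the letters before their starts, 100 are shown for each (chr11:100319785-100319884 and chrY:1010443-1010542, both plus), with no part in capitals.
Eif1: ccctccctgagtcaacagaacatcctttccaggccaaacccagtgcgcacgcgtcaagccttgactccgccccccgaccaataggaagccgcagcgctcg
Eif2s3y: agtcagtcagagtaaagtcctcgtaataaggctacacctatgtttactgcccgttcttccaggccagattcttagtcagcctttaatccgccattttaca
Eif3c, which rose, held the ETS core at 2 places, and that farther from the start is shown as its reverse complement (chr7:126566408-126566454, minus).
Eif3c: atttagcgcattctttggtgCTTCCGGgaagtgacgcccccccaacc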

How the data were processed

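RNA of wild-type mouse PTECs, an immortalized line, was sequenced after 6 hours of treatment. The sample labels gave the groups and replicate numbers, to which the table's columns, named by an initial and a number, were matched. The authors deposited RPKM values per gene and library, made from reads aligned to GRCm38 (mm10) with TopHat2 and counted per gene. Version 2.1.1 of TopHat2 is from the submitters' processing notes, which also list bcl2fastq. For the read counter, its annotation and its use of strand, nothing is stated in the sources at hand. The deposited table also holds the fold changes, p-values, adjusted p-values and ranking of the authors' own edgeR test, which were not used.

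Genes were kept where RPKM averaged 0.5 or more over the libraries, which left 11671. Their log2(RPKM + 0.1) values were fitted in limma 3.58.1 under R 4.3.3 (lmFit, then eBayes allowing a variance trend), with no term besides condition. Adjustment was by Benjamini-Hochberg over all of them, and a fold change on this scale understates that of genes with low levels. Values could be turned into whole reads (tolerance 1e-06) for 100% of the 19127 genes not at 0 throughout. The recovered reads accounted for 99.4% of each library size and were used in limma voom, an alternative, and for the read numbers given. By chi-square on these reads, libraries of the same group differed beyond sampling noise (1.83 to 7.77 per degree of freedom), so none was counted as a duplicate. The limma step was tested on simulated data.

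The members, gene lists, motifs and tests were chosen with earlier results of these data known. Genes named by rule were the called initiation factors with no overlap between the groups, the largest change and the highest level per factor, those under the minimum, paralogs, and up to 3 per related list. Others named were chosen after their values were seen. Positions, GC content (known for 96.5% of the genes tested) and shared 50-base words are from GENCODE vM21 on GRCm38, in which 95.7% of the symbols were found, and promoters from RefSeq. Of 49 related genes, 1 was listed under an older symbol (Gcn1l1). The alternatives were other pseudocounts and filters, median-of-ratios scaling, quantile normalization, no variance trend, voom, a replicate block, a loess fit on GC content removed from each library, and leaving out each library. Of the renal epithelial markers, 1 is not reported here.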

Additional observations from a re-analysis of the deposited data

How the results depend on the processing

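The 17 alternatives all ran. As reported, 2 initiation factor genes were called higher and 6 lower. Without the filter on low values and without the variance trend, 1 was called higher. Called lower were 1 without the variance trend, 1 with median-of-ratios scaling, 1 with the GC trend removed and 3 with the replicate block and the GC trend removed. With 1 library left out, 1 to 5 were called higher and 1 to 8 lower. Of the 36 genes not called, 29 were called under no alternative. Of the related genes, 12 were called higher and 3 lower. The count called lower was 1 without the filter, 5 with a mean RPKM of at least 1, 1 without the variance trend, 5 with the replicate block, 5 with voom and 0 to 5 with 1 library left out. Over all genes, 1302 were called higher and 1111 lower, 739 lower without the filter, and 818 to 1368 higher and 391 to 1653 lower with 1 library left out. With voom on recovered reads, 1487 and 1415 were called. With median-of-ratios scaling the split was 1476 higher and 794 lower. The cause was not tested. That scaling moved the median of all genes from −0.04 to −0.01.

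Among the genes named, signs turned in ones that were not called. With median-of-ratios scaling the log2 fold changes were 0.001 for Eif3b, 0.021 for Eif4a1, 0.020 for Eif4b, 0.018 for Eif5a and 0.011 for Ddx3x. With quantile normalization they were 0.074 for Eif4a1, 0.002 for Eif4b and 0.059 for Eif5a. With the GC trend removed, with or without the block, they were 0.011 for Eif4a1, 0.005 for Eif4b, 0.002 for Eif5a and 0.013 for Ddx3x. With 1 library left out, the range was −0.021 to 0.044 for Eif1ad, −0.019 to 0.070 for Eif1b, −0.062 to 0.016 for Eif2s1, −0.033 to 0.074 for Eif2s3x, −0.024 to 0.096 for Eif3a, −0.108 to 0.018 for Eif3f, −0.020 to 0.018 for Eif4a1, −0.025 to 0.021 for Eif4b, −0.026 to 0.028 for Eif5a, −0.072 to 0.036 for Eif5b, −0.011 to 0.034 for Pabpc1 and −0.050 to 0.047 for Ddx3x.

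Libraries with the same replicate number did not deviate together (correlations over genes of 0.04, −0.04 and 0.09), so the numbers were not taken as pairs, and 1 of the 3 BSA libraries correlated best with the PA library of its own number. With the replicate block, 2 initiation factor genes were called higher and 4 lower, and 1333 and 1242 of all genes.

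Depth limits Eif4e1b and Eif4e3, with at most 4 reads in any library. Of the initiation factor genes tested, Eif5a2 had the lowest level and the widest interval.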
